A study of Mus musculus with 16 samples.

Results

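The 9 genes described here write, copy and remove DNA methylation in the mouse. They were chosen by name (Dnmt1, Dnmt3a, Dnmt3b, Dnmt3l, Uhrf1, Tet1, Tet2, Tet3 and Tdg), and all 9 were listed in each of the 3 deposited gene tables, which together list 32826 genes. RNA was measured in E14 mouse embryonic stem (ES) cells with a lesion in SAGA or ATAC, coactivator complexes that acetylate histones. Newly synthesized RNA was labelled with 4-thiouridine (4sU), a uridine analogue, for 15 min, purified and sequenced in 14 libraries of 3 sequencing projects, and total RNA of WT cells was sequenced in 2 more. Labelled cells of a distant species served as a spike-in: project 1 used Drosophila S2 cells, the other projects S. pombe.

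The AID-Tada3, AID-Yeats2 and AID-Zzz3 lines carry an auxin-inducible degron (AID) on the named protein, and the Supt7l-/- line is a knockout. Tada3 belongs to a module that SAGA and ATAC share, Yeats2 and Zzz3 to ATAC, and Supt7l to SAGA. Each mutant had 2 libraries, 1 from each of 2 clones. Each project had 2 WT 4sU libraries, 1 from plain WT cells and 1 from WT cells that overexpress Tir1 and BirA. Tir1 is the plant receptor that auxin uses to mark degron-tagged proteins for degradation, and BirA is a biotin ligase. The labels do not say whether the mutant lines carry Tir1. Every line here, also WT, was kept for 24 h with auxin (IAA), and all were grown in serum with leukaemia inhibitory factor, CHIR99021 (a GSK3 inhibitor) and PD0325901 (a MEK inhibitor). AID-Tada3 was compared with WT in project 1, AID-Yeats2 and Supt7l-/- with the same WT libraries in project 2, and AID-Zzz3 with WT in project 3.

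DNA methylation in mammals is placed on cytosines by the de novo enzymes Dnmt3a and Dnmt3b, helped by the catalytically inactive Dnmt3l, and copied at replication by Dnmt1, which Uhrf1 brings to hemimethylated sites. The Tet dioxygenases oxidise methylcytosine, and Tdg, a glycosylase, cuts out its most oxidised forms for repair. ES cells kept with MEK and GSK3 inhibitors are known for low DNA methylation.

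The libraries held 8268061 to 15994518 mouse gene counts from 4sU RNA and 4903998 to 6378707 from total RNA. The ES label matched its markers: 11 of 12 naive pluripotency genes were in the tables, and they summed to 2905 to 3474 counts per 1e6 counts (CPM) in 4sU libraries. The 7 primitive endoderm markers summed to 8.90 to 23.3 CPM, the 6 trophectoderm markers to 20.2 to 32.0 CPM, the neural markers that were listed to 15.7 to 40.6 CPM and the fibroblast markers to 20.9 to 66.0 CPM. RNA of the targeted gene was Tada3 12.2 and 10.5 CPM in AID-Tada3 clones against 31.3 and 23.9 CPM in WT, and Zzz3 288 and 300 CPM in AID-Zzz3 clones against 430 and 448 CPM in WT. Yeats2 RNA was 109 and 188 CPM in AID-Yeats2 clones against 242 and 256 CPM in WT, and Supt7l RNA was 8.87 and 14.1 CPM in Supt7l-/- clones against 13.9 and 14.3 CPM in WT. Of these, Zzz3 passed edgeR's quasi-likelihood test (log2 fold change -0.58, adjusted p = 0.0340), and the labels do not say which part of Supt7l was deleted. RNA counts do not show the degraded proteins.

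The promoters of the 4 members that passed the test in a mutant follow, because those genes carry the results on the mutants. Sequences are from RefSeq (GRCm38.p6), 250 bases before to 50 bases after a transcription start, on the strand of the gene, 5′ to 3′. All 9 members matched, with 16 starts, and for a gene with several starts the one with the most CpG pairs is shown. The Dnmt1 window is chr9:20952574-20952873 (minus strand), Uhrf1 chr17:56304063-56304362 (plus), Dnmt3b chr2:153649199-153649498 (plus) and Tet3 chr6:83441629-83441928 (minus). Capitals mark matches, on both strands, to the E2F elements TTGGCGC and TTCCCGC, the GC box GGGCGG, the CCAAT box CCAAT, the E-box CACGTG, the NRF1 core GCATGCG and the TATA box TATAAA. Where matches overlap or touch, the capitals run on.
Dnmt1: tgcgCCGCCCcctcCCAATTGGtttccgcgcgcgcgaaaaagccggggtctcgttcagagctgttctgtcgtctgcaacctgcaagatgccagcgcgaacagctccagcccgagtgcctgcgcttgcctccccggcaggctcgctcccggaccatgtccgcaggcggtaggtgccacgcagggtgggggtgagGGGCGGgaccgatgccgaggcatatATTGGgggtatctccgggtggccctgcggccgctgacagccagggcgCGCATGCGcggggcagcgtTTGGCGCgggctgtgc
Uhrf1: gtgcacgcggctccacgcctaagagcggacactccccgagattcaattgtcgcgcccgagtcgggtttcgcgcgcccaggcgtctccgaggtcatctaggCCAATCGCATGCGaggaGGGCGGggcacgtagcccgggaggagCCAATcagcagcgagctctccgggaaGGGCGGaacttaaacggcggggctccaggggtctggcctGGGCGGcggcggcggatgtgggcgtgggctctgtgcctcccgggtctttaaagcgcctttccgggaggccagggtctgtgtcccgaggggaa
Dnmt3b: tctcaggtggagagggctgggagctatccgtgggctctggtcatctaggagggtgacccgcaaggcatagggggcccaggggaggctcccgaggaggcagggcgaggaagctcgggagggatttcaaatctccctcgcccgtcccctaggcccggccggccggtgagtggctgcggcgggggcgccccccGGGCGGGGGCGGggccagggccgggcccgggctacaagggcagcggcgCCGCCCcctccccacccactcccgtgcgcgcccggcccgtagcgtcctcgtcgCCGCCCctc
Tet3: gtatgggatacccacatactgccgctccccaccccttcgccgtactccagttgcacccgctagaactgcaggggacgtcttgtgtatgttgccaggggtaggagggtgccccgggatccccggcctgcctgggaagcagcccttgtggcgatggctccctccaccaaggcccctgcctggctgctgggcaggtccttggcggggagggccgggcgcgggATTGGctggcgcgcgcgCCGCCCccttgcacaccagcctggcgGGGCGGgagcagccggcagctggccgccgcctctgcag

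The windows shown held 33 CpG pairs in Dnmt1, 33 in Uhrf1, 30 in Dnmt3b and 22 in Tet3, and the median over 32851 RefSeq promoters of the same length was 7 (quartiles 3 and 20). For Dnmt1 and Uhrf1 the high count follows from the choice of start, since the other Dnmt1 starts had 12 and 2 and the other Uhrf1 start 12, while Dnmt3b and Tet3 have 1 start each in the table. The Dnmt1 window held 2 GC boxes, 3 CCAAT boxes and 2 NRF1 cores, and the Uhrf1 window held 3, 2 and 2. Matches on each strand were counted apart, so the 2 NRF1 cores of each window are 1 stretch, CGCATGCG. Likewise, 2 of the 3 CCAAT boxes of Dnmt1 are 1 stretch, CCAATTGG. Dnmt3b had 4 GC boxes and no CCAAT box, and Tet3 had 2 and 1. Of all promoters, 35.7% hold a GC box, 37.4% a CCAAT box and 3.58% an NRF1 core. TTGGCGC was found in the Dnmt1 window (2.45% of all promoters hold it), and TTCCCGC in the window of the other Uhrf1 start, chr17:56303087-56303386 (4.6%). Over all 16 starts of the members the counts ran from 2 CpG, at another Dnmt1 start, to 57, at the start of Tet2, and the starts of Dnmt3l had 6, 4 and 3. No member window matched TATAAA, which 13.6% of all promoters hold. A match is a description of letters, not a binding site.

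In WT cells, Tet1 and Tet2 had the most newly synthesized RNA of the 9 members. Levels between genes are given per kb of merged exon (GENCODE M21), over the 6 WT 4sU libraries, each scaled within its own project. Tet1 had 60.6 to 73.2 CPM per kb with a median of 66.8, and Tet2 had 32.5 to 46.6 with a median of 36.0. Uhrf1 followed at 23.3 to 32.4 (median 28.8), Dnmt1 at 18.8 to 21.0 and Dnmt3b at 11.9 to 16.2 (median 14.9) CPM per kb. The low end held Tdg at 5.83 to 7.24 (median 6.71), Dnmt3l at 1.84 to 4.53 (median 3.09), Tet3 at 1.19 to 2.15 (median 1.55) and Dnmt3a at 1.23 to 2.14 (median 1.51) CPM per kb.

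Neighbours in that order did not overlap over the 6 libraries, except Dnmt3l with Tet3 and Tet3 with Dnmt3a. The order below Tet2 rests on the length used. By the authors' median transcript length, which is 820.5 bases for Dnmt3a and 773 for Tdg against merged exons of 16642 and 5374 bases, Tdg would follow Tet2, and Dnmt3a would pass Dnmt1, Dnmt3b, Dnmt3l and Tet3. Tet1 supplied 55.4 to 68.5% of the Tet RNA per kb in the WT 4sU libraries, Tet2 30.4 to 42.6% and Tet3 1.12 to 1.97%. Dnmt3b was 5.54 to 12.2 times as high as Dnmt3a per kb. These shares and ratios rest on merged exons too: by the authors' length the medians were 1722 CPM per kb for Tet1, 252 for Tet2 and 5.33 for Tet3, and Dnmt3b (18.5) lay below Dnmt3a (30.6). The raw counts behind these levels ran from 57 (Dnmt3l) to 14855 (Tet1) per library, so counting error is largest for Dnmt3l.

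Neighbouring genes could add reads to some members. Exons of Tet2 share 43 bases with the antisense gene Gm42567, those of Tdg 367 bases with Glt8d2, those of Dnmt3l 67 bases with Aire, and those of Dnmt3a 133 bases with Dnmt3aos. The libraries were stranded, but how strand was treated in counting is not given in the sources used here. Dnmt3c, a close paralogue of Dnmt3b, had 1 to 7 counts per 4sU library, and Tdg-ps, a pseudogene copy of Tdg, had 0 to 1. Reads that such copies share cannot be told apart from these tables.

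Newly synthesized and total RNA of WT cells were compared next, to see which members take a larger share of new RNA than of standing RNA. Dnmt1, Uhrf1, Dnmt3b and Dnmt3l took a smaller share of newly synthesized RNA than of total RNA, and the 3 Tet genes and Tdg a larger one. With edgeR's quasi-likelihood test, 4 members were higher in 4sU RNA and 4 lower, and Dnmt3a did not pass, while 30.4% of all 14494 genes tested were higher and 33.0% lower. Passing in one direction or the other was common, at 63.4% of all genes. Both 4sU libraries lay above both total RNA libraries for 5 members and below them for 4, as they did for 41.7% and 41.1% of all genes. Fold changes here are scaled by TMM, which assumes that most mouse genes are alike in both kinds of RNA, and a negative log2 value means a smaller share in 4sU RNA.

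Among the lower genes, Dnmt3l stood out. It had 4.65 and 3.84 CPM per kb in 4sU RNA, against 22.9 and 19.06 in total RNA (log2 fold change -2.30 ± 0.19 SE, adjusted p = 5.43e-05). Uhrf1 had 33.2 and 30.4 CPM per kb in 4sU RNA, against 86.6 and 90.5 in total RNA (-1.48 ± 0.14, adjusted p = 9.79e-05). Dnmt1 had 21.5 and 20.7 in 4sU RNA, against 50.8 and 57.0 in total RNA (-1.35 ± 0.14, adjusted p = 0.000153). Dnmt3b had 16.6 and 15.7 in 4sU RNA, against 32.3 and 29.4 in total RNA (-0.93 ± 0.14, adjusted p = 0.000821). For these 4 genes no 4sU library reached a total RNA library.

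Tdg had the largest positive value of the members. It stood at 5.97 and 7.52 CPM per kb in 4sU RNA, against 1.45 and 1.49 in total RNA, on raw counts of 497 and 568 against 40 and 52 (log2 2.2 ± 0.21, adjusted p = 0.000101). Tet3 stood at 2.2 and 1.52 in 4sU RNA, against 0.792 and 0.378 in total RNA (1.69 ± 0.35, adjusted p = 0.00433). The total RNA values of Tet3 rest on 68 and 41 counts. Tet1 stood at 62.0 and 66.8 in 4sU RNA, against 38.0 and 28.5 in total RNA (0.95 ± 0.18, adjusted p = 0.00255), and Tet2 at 47.8 and 35.2 in 4sU RNA, against 28.6 and 15.1 in total RNA (0.93 ± 0.30, adjusted p = 0.0311). Tet2 and Tet3 were lower in the Tir1/BirA cells than in the plain WT cells in both kinds of RNA, as were Dnmt3b and Dnmt3l. Each line had 1 library of each kind. Dnmt3a had 1.44 and 1.28 in 4sU RNA, against 1.15 and 1.26 in total RNA (0.18 ± 0.18, adjusted p = 0.407).

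**Figure D1:**
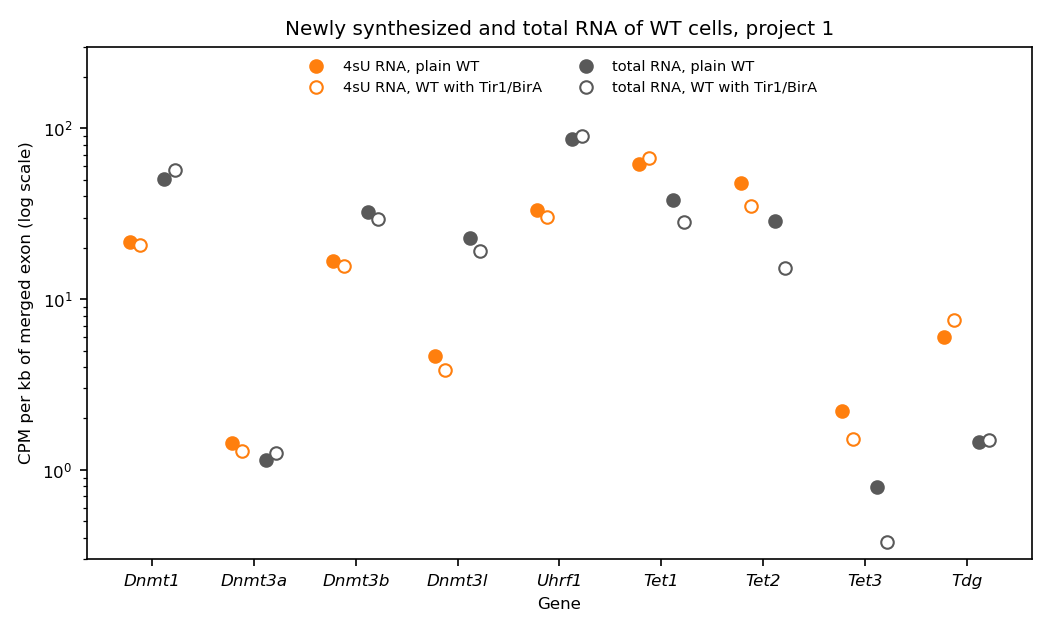
Levels of the 9 members in newly synthesized (orange, left of each pair) and total RNA (grey) of WT cells, in CPM per kb of merged exon on a log axis; each point is 1 library, filled for plain WT and open for WT with Tir1/BirA. Tdg stands at 5.97 and 7.52 in 4sU RNA against 1.45 and 1.49 in total RNA, and Dnmt3l at 4.65 and 3.84 against 22.9 and 19.06.

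These are shares of the mouse RNA in each library. Scaled by the spike-in, the median of all genes moved to 2.28 on the log2 scale and 8 members were called higher in 4sU RNA, where 80.5% of all genes were. Dnmt1 (0.89), Dnmt3b (1.30) and Uhrf1 (0.76) then changed sign, but stayed under that median, and Tdg and Tet3 stayed above it at 4.42 and 3.92. The libraries were also made differently, since ribosomal RNA was depleted from total RNA but not from 4sU RNA, and what that adds to the differences was not tested. The tables do not say whether reads in introns were counted.

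The mutants were then compared with WT to find which methylation genes change with each lesion. Of 36 member values over the 4 mutants, 4 passed the test. Dnmt1 fell and Dnmt3b rose in AID-Yeats2, and Uhrf1 and Tet3 fell in Supt7l-/-. No member passed in AID-Tada3 or AID-Zzz3. The plot of counts per library shows the members' 4sU RNA in all 14 libraries. In bulk RNA, fewer cells of a type and less RNA per cell cannot be told apart.

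**Figure D2:**
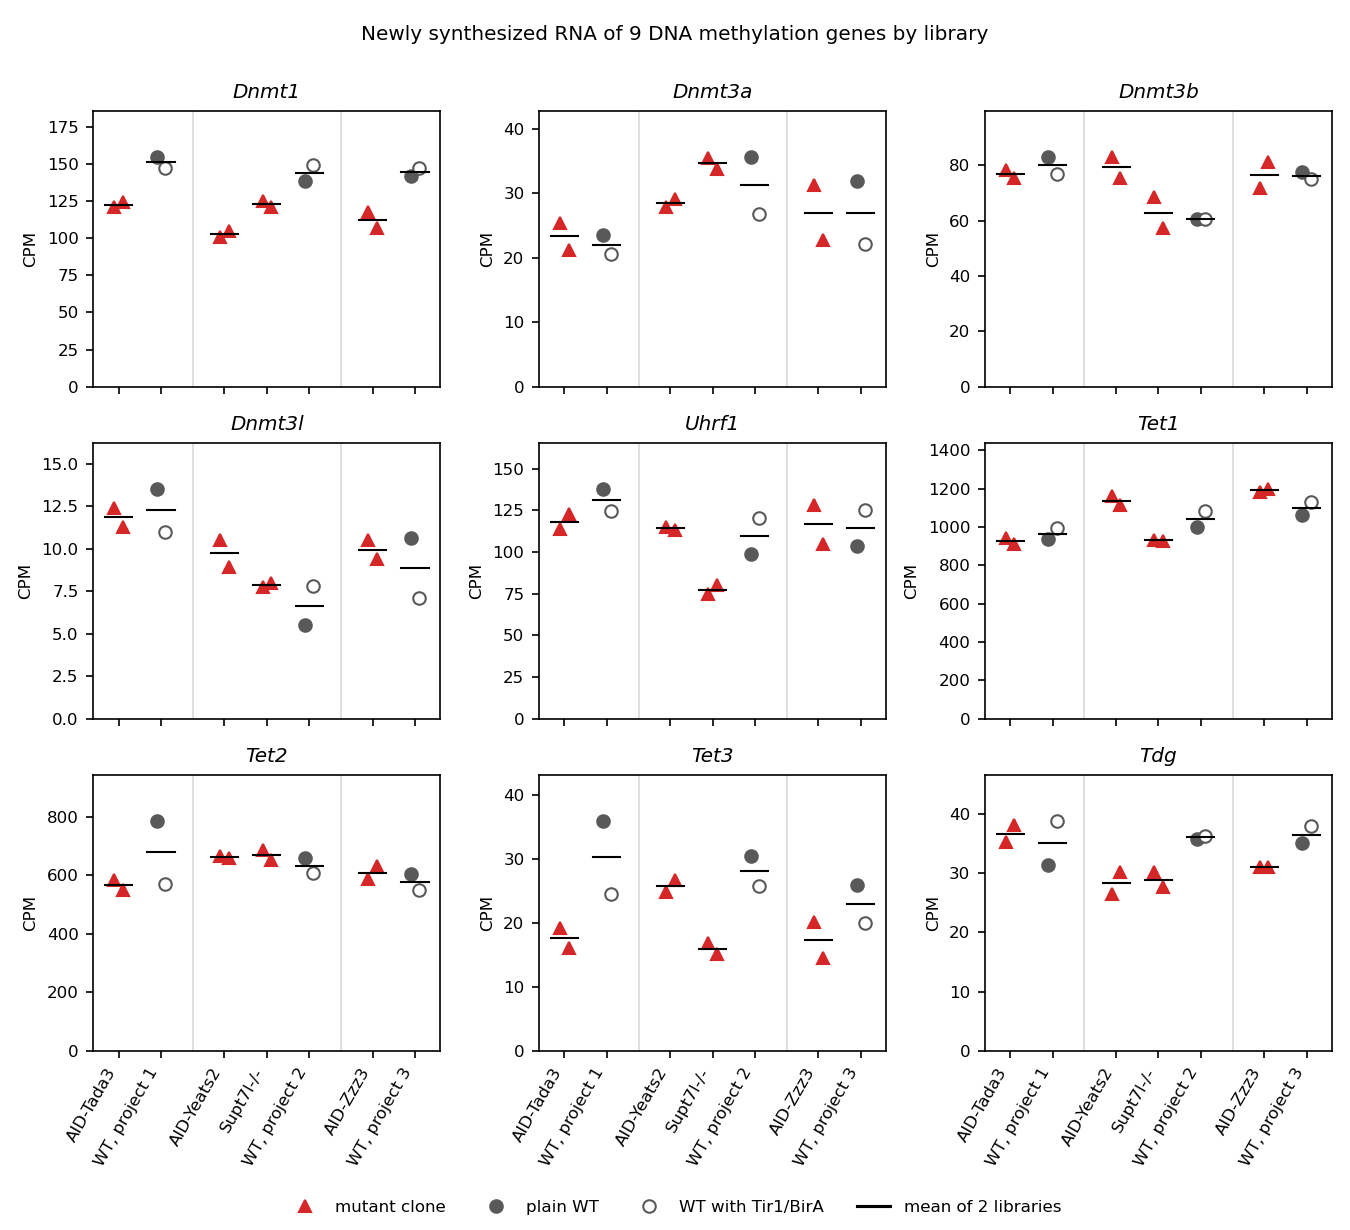
Newly synthesized RNA of each member in CPM (TMM scaled within each project, axis from 0) in the 14 4sU libraries, with each mutant left of the WT libraries of its project; triangles are mutant clones, filled circles plain WT, open circles WT with Tir1/BirA, and bars the mean of 2 libraries. Dnmt1 lies below WT in both clones of all 4 mutants, at 101 to 125 CPM against 139 to 155 CPM in WT.

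By comparison, in AID-Yeats2 1 of 9 members was called higher and 1 lower by edgeR, where 3.92% of all genes were higher and 3.32% lower, and 4 had an unadjusted p under 0.05, as did 21.3% of all genes. In Supt7l-/-, 0 were higher and 2 lower, where 1.32% and 2.02% of all genes were (3.33% together), and 5 had an unadjusted p under 0.05, as did 18.3% of all genes. The same WT libraries served both. In AID-Tada3, 0 members passed by edgeR, where 0% of all genes were called higher and 0.0331% lower. There 2 members had an unadjusted edgeR p under 0.05, as did 8.0% of all genes. By DESeq2 0 members passed, where 0.0530% of all genes were higher and 0.159% lower. In AID-Zzz3, 0 members passed by edgeR, where 0.681% of all genes were higher and 0.303% lower (0.984% together). Here 1 member had an unadjusted edgeR p under 0.05, as did 12.9% of all genes. DESeq2 also called 0 members in AID-Zzz3, where 1.17% of all genes were higher and 0.626% lower. Both clones lay beyond both WT libraries for 4 members above and 2 below in AID-Yeats2 (25.3% and 25.8% of all genes, 51.2% together), and for 0 above and 5 below in Supt7l-/- (24.0% and 24.4%, 48.4% together). For AID-Tada3 the counts were 0 above and 3 below (19.3% and 20.3%, 39.6% together), and for AID-Zzz3 1 above and 2 below (22.8% and 21.9%, 44.7% together). The median log2 fold change of the 9 members was -0.06 in AID-Tada3, 0.06 in AID-Yeats2, -0.17 in Supt7l-/- and 0.01 in AID-Zzz3, and that of all genes lay between -0.0046 and 0.0029.

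Dnmt1, the maintenance methyltransferase, had less newly synthesized RNA in every mutant clone than in the WT libraries of its project. It had 101 and 105 CPM in AID-Yeats2 clones, against 139 and 149 CPM in WT. The fall in AID-Yeats2 was -0.49 ± 0.08 on the log2 scale, a fold of 0.714, with an adjusted p of 0.00134 in edgeR's quasi-likelihood test. It passed under all 10 alternatives, from -0.98 to -0.43, with adjusted p up to 0.0476. Supt7l-/- clones had 125 and 121 CPM, against the same WT values, and did not pass (-0.22 ± 0.07, adjusted p = 0.124). With a library left out that value ran from -0.28 to -0.17. AID-Zzz3 clones had 117 and 107 CPM, against 142 and 147 CPM in WT (-0.37 ± 0.10, adjusted p = 0.182). AID-Tada3 clones had 121 and 124 CPM, against 155 and 147 CPM in WT (-0.30 ± 0.08, adjusted p = 0.465). Neither of these 2 passed in the main fit, though no clone reached a WT library. In AID-Zzz3, Dnmt1 did pass with no filter, in the joint fit and under spike-in scaling. Its log2 values there ran from -0.73 to -0.30 over all 10 alternatives, and 7 of these kept the main result.

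Uhrf1, which guides Dnmt1 to newly replicated DNA, passed in the other mutant of project 2. Its 4sU RNA was 74.6 and 80.0 CPM in Supt7l-/- clones, against 99.1 and 120 CPM in WT. That fall was -0.50 ± 0.09, a fold of 0.706, with adjusted p = 0.00926 in edgeR. It was lost without clone 1 (adjusted p = 0.189), without clone 2 (0.0938) and in 1 fit over all 4sU libraries (0.0670). AID-Yeats2 clones, at 115 and 113 CPM, lay between the same WT libraries (0.06 ± 0.09, adjusted p = 0.768). AID-Zzz3 clones had 128 and 105 CPM, against 104 and 125 CPM in WT (0.02 ± 0.14, adjusted p = 0.966). AID-Tada3 clones had 113 and 123 CPM, against 138 and 125 CPM in WT (-0.15 ± 0.09, adjusted p = 0.701). Per kb, the ratio of Dnmt1 to Uhrf1 was 0.507 and 0.533 in AID-Yeats2 clones and 0.968 and 0.875 in Supt7l-/- clones, against 0.808 and 0.716 in WT of that project. AID-Zzz3 clones had 0.528 and 0.589, against 0.788 and 0.680 in WT, and AID-Tada3 clones 0.615 and 0.584, against 0.648 and 0.682 in WT.

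Among the de novo genes, Dnmt3b rose in AID-Yeats2 as a share of mouse RNA. It had 83.1 and 75.3 CPM in AID-Yeats2 clones, against 60.6 and 60.7 CPM in WT, a log2 rise of 0.39 ± 0.10 and a fold of 1.31 (edgeR adjusted p = 0.0294). The sign turned to -0.12 (adjusted p = 0.703) under spike-in scaling, and the call was lost by DESeq2 (adjusted p = 0.0716), without clone 1 (0.327) and without clone 2 (0.0828). Supt7l-/- clones had 68.5 and 57.3 CPM (0.05 ± 0.10, adjusted p = 0.843). AID-Zzz3 clones had 71.8 and 81.2 CPM, against 77.6 and 75 CPM in WT, and AID-Tada3 clones 78.3 and 75.5 CPM, against 82.8 and 77.0 CPM in WT. Neither passed (log2 0.01 and -0.06). With Dnmt1 lower and Dnmt3b higher, Dnmt3b per kb was 1.19 and 1.04 times Dnmt1 in AID-Yeats2 clones, against 0.631 and 0.587 times in WT.

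Dnmt3l, the cofactor without enzyme activity, was the least abundant in CPM, so its values carry the most counting error. AID-Yeats2 clones had 10.5 and 8.94 CPM and Supt7l-/- clones 7.73 and 8.0 CPM, against 5.51 and 7.80 CPM in WT. The AID-Yeats2 value of 0.55 ± 0.21 had an adjusted p of 0.137 in edgeR. Dnmt3a had 27.9 and 29.0 CPM in AID-Yeats2 and 35.5 and 33.8 CPM in Supt7l-/- clones, against 35.7 and 26.8 CPM in WT. In the other 2 mutants neither gene passed, with log2 values from -0.05 to 0.16.

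Tet3, the least transcribed Tet gene, fell in Supt7l-/- and was the member with the largest log2 change. It had 16.8 and 15.1 CPM in Supt7l-/- clones, against 30.3 and 25.6 CPM in WT (log2 -0.82 ± 0.14, a fold of 0.568, edgeR adjusted p = 0.00496). The call was lost without clone 1 (adjusted p = 0.0698), without clone 2 (0.102) and in the joint fit (0.0943), with log2 values of -0.90, -0.74 and -0.81. AID-Tada3 clones had 19.2 and 16.0 CPM, against 35.9 and 24.4 CPM in WT (-0.78 ± 0.19, adjusted p = 0.454). AID-Zzz3 clones had 20.1 and 14.5 CPM, against 26.0 and 19.9 CPM in WT (-0.42 ± 0.21, adjusted p = 0.451). AID-Yeats2 clones, at 24.8 and 26.7 CPM, overlapped WT (-0.12 ± 0.13, adjusted p = 0.640). Without the Tir1/BirA WT library of project 1, AID-Tada3 passed at -1.02 (adjusted p = 4.46e-11), as did Dnmt1 at -0.33 and Tet2 at -0.46. In that fit 1040 of all genes were called higher and 1000 lower, against 0 and 5 with both WT libraries.

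Tet1 and Tet2, the Tet genes with the most new RNA here, passed in no mutant with both WT libraries and TMM scaling. Tet1 ran from 910 to 1199 CPM in the mutants, against 936 to 1131 CPM in WT, with log2 values between -0.17 (Supt7l-/-) and 0.12 (AID-Yeats2). Without the plain WT library of project 2, Tet1 stood at -0.22 in Supt7l-/-. Without the Tir1/BirA WT library of that project it stood at 0.19 in AID-Yeats2. Tet2 ran from 549 to 685 CPM in the mutants, against 548 to 786 CPM in WT, with log2 values between -0.26 (AID-Tada3) and 0.08 (AID-Zzz3). Tet3 made up 0.988 and 0.906% of the Tet RNA per kb in Supt7l-/- clones and 1.28 and 1.42% in AID-Yeats2 clones, against 1.72 and 1.43% in WT of that project.

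Tdg, the glycosylase that removes oxidised cytosines, lay below WT in 3 mutants but passed in none with TMM scaling and all libraries. It had 26.4 and 30.3 CPM in AID-Yeats2 clones and 30.1 and 27.7 CPM in Supt7l-/- clones, against 35.8 and 36.3 CPM in WT (log2 -0.35 ± 0.11 and -0.32 ± 0.11, edgeR adjusted p = 0.0865 and 0.15). Without the plain WT library of project 2, Tdg stood at -0.36 in AID-Yeats2. AID-Zzz3 clones had 31.1 and 31.0 CPM, against 35.1 and 38.0 CPM in WT (-0.23 ± 0.12, adjusted p = 0.483). AID-Tada3 clones overlapped WT, at 35.2 and 38.2 CPM against 31.3 and 38.9 CPM.

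**Figure D3:**
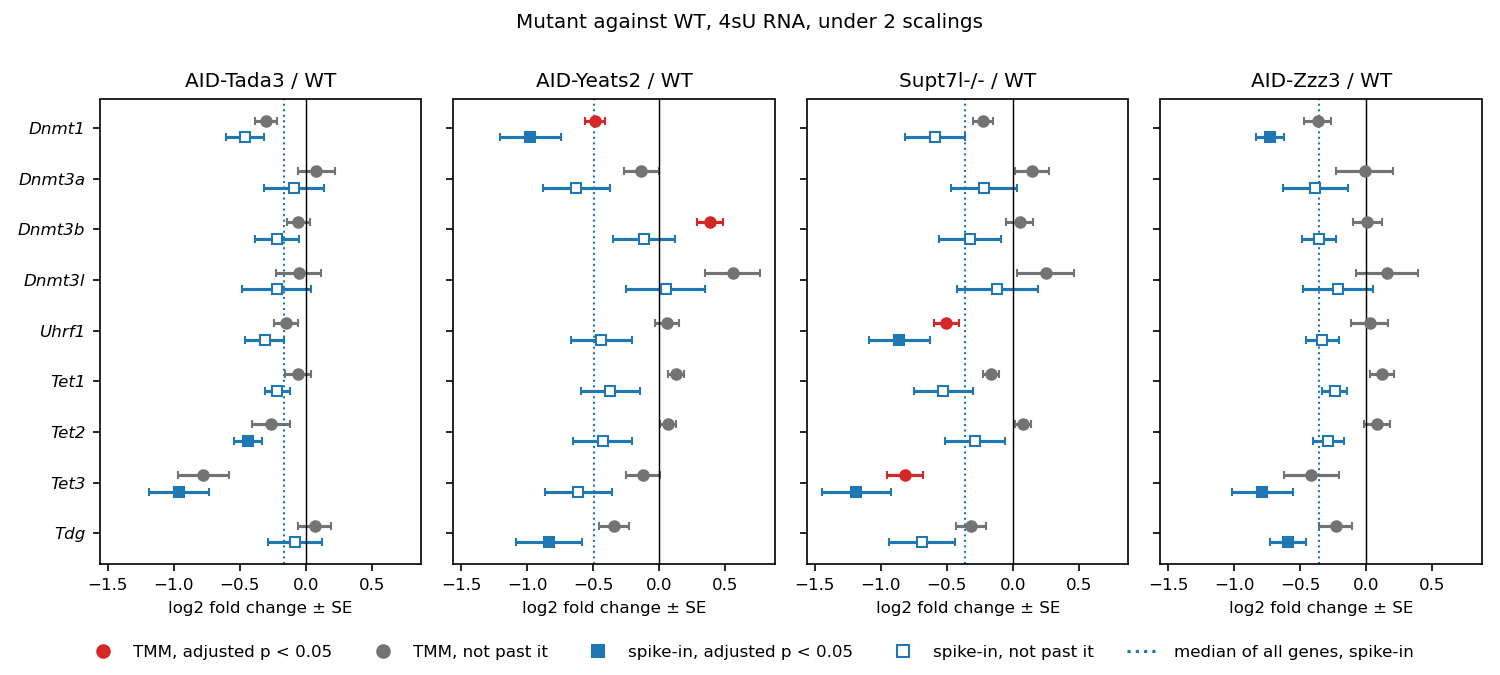
Log2 fold change ± SE of each member in each mutant against WT, under TMM scaling (circles, red where the adjusted p is under 0.05) and spike-in scaling (squares, filled where it is), 2 libraries per group; the dotted line is the median of all genes under spike-in scaling. Under TMM 4 values pass, Dnmt1 at -0.49 and Dnmt3b at 0.39 in AID-Yeats2, and Uhrf1 at -0.50 and Tet3 at -0.82 in Supt7l-/-.

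The spike-in gives amounts of new RNA instead of shares, and by that measure the members were lower almost throughout. The median of all genes fell by 0.16 in AID-Tada3, 0.50 in AID-Yeats2, 0.36 in Supt7l-/- and 0.36 in AID-Zzz3 on the log2 scale, and 35 of 36 member values were below 0. In AID-Yeats2, Dnmt1 was at 45.2 and 56.2% of the WT mean in the clones, against 95.8 and 104% in WT, and Tdg at 47.4 and 64.9%, against 98.7 and 101% in WT. Members called lower by edgeR after spike-in scaling were Dnmt1 and Tdg in AID-Yeats2 and Uhrf1 and Tet3 in Supt7l-/-, where 22.4% and 4.42% of all genes were. In AID-Tada3 Tet2 and Tet3 were (1.40% of all genes), and in AID-Zzz3 Dnmt1, Tet3 and Tdg (24.4%).

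Set against the median shift of each mutant, Tet3 in Supt7l-/- (-1.19) and AID-Tada3 (-0.96) lay furthest below it, followed by Uhrf1 in Supt7l-/- (-0.86) and Dnmt1 in AID-Yeats2 (-0.98). The authors' deposited table, which uses a spike-in factor, calls 5 members lower in AID-Yeats2 (Dnmt1, Dnmt3a, Tet2, Tet3 and Tdg), where it calls 48.9% of the genes with an adjusted p lower. The authors' deposited table also calls 5 lower in Supt7l-/- (Dnmt1, Uhrf1, Tet1, Tet3 and Tdg, with 8.86% of genes), 3 in AID-Zzz3 (Dnmt1, Tet3 and Tdg, with 35.7%) and 0 in AID-Tada3 (0.0559%).

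The 2 mutants of project 2 were compared directly, to set a lesion in ATAC against one in SAGA. AID-Yeats2 had more new RNA than Supt7l-/- from Uhrf1, Tet1, Tet3 and Dnmt3b and less from Dnmt1. With edgeR 4 members were higher and 1 lower, where 8.95% of all genes were higher and 7.32% lower. Tet3 was 0.69 ± 0.14 higher on the log2 scale (adjusted p = 0.00380), Uhrf1 0.56 ± 0.09 (0.00128), Dnmt3b 0.33 ± 0.10 (0.0328) and Tet1 0.29 ± 0.06 (0.00492). Dnmt1 was lower at -0.26 ± 0.08 (adjusted p = 0.0308).

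In that contrast Tet1 had 1161 and 1112 CPM in AID-Yeats2 clones, against 934 and 926 CPM in Supt7l-/- clones. Both AID-Yeats2 clones lay above both Supt7l-/- clones for 5 members and below for 2 (30.2% and 31.5% of all genes, 61.7% together). Tet2 (-0.01), Tdg (-0.03), Dnmt3a (-0.28) and Dnmt3l (0.31) did not pass. Under spike-in scaling 0 members passed by edgeR, where 2.27% of all genes were called higher and 2.48% lower, and leaving out either clone of either line left 1 to 3.

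Between projects, each mutant's effect was taken against its own WT and the difference was tested with all 14 4sU libraries in 1 fit. In all 5 such tests 0 members passed by edgeR and 0 by DESeq2. Unadjusted p-values under 0.05 numbered 3 for AID-Yeats2 minus AID-Tada3, 2 for Supt7l-/- minus AID-Tada3, 2 for AID-Zzz3 minus Supt7l-/-, 1 for AID-Yeats2 minus AID-Zzz3 and 0 for AID-Zzz3 minus AID-Tada3. Over all 15426 genes, 14.3%, 10.4%, 15.0%, 2.45% and 12.6% had an unadjusted p under 0.05 in those edgeR tests. Of the same genes, 1.43%, 0.0194%, 1.24%, 0% and 1.04% passed by edgeR. The difference for Uhrf1 was 0.52 ± 0.17 between AID-Zzz3 and Supt7l-/- (adjusted p = 0.153), and that for Dnmt3b 0.44 ± 0.14 between AID-Yeats2 and AID-Tada3 (adjusted p = 0.14). For Dnmt1 the largest difference was -0.19 ± 0.11, between AID-Yeats2 and AID-Tada3 (adjusted p = 0.462). The tests with AID-Tada3 gained calls when the Tir1/BirA WT library of project 1 was left out, among members and over all genes.

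Genes around the members were tested in the same fits. The first list was of partners and recruitment. In AID-Yeats2, 3 of its 20 tested genes fell and 1 rose, where 3.32% of all genes were lower and 3.92% higher. Pcna, the replication clamp that also holds Dnmt1, had 32.4 and 42.9 CPM in the clones, against 57.6 and 72.0 CPM in WT (edgeR log2 -0.78, adjusted p = 0.00644). Uhrf2, the paralogue of Uhrf1, was at -0.35 (adjusted p = 0.00630) and Cdca7, which activates the remodeller Hells, at -0.38 (0.0376). Kdm2b, which binds unmethylated CpG islands, rose by 0.49 (0.00595). The fall of Pcna was lost without AID-Yeats2 clone 1 (adjusted p = 0.0695), as were those of Uhrf2 and Cdca7 (0.171 and 0.340) and the rise of Kdm2b (0.142), which stood at -0.016 under spike-in scaling. Uhrf2 (0.138) was also lost in the joint fit, and Cdca7 passed in 5 of 10 alternatives.

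No methyl-CpG reader of 10 and no base excision repair gene of 15 tested was called in AID-Yeats2 by edgeR. Of all genes, 7.24% were called there. Of 16 tested genes that supply methyl groups or oxoglutarate, Idh1 (0.78, adjusted p = 0.000606) and Gldc (0.40, 0.0192) rose, and the first was at 0.28 and the second at -0.10 under spike-in scaling, neither past the test. Gldc was also lost by DESeq2 (adjusted p = 0.0549), in the joint fit (0.0734) and without clone 1 (0.302). In Supt7l-/-, Lef1, a transcription factor of the Wnt pathway, was the 1 of 20 genes called in the partners and recruitment list. Of all genes, 3.33% were called in Supt7l-/-. Lef1 had 5.46 and 8.63 CPM in the clones against 17.8 and 17 CPM in WT (-1.29, edgeR adjusted p = 0.00287). The call on Lef1 was lost without clone 1 (adjusted p = 0.0803) and in the joint fit (0.138). In AID-Tada3 and AID-Zzz3 no gene of these lists was called by edgeR, where only 0.0331% and 0.984% of all genes were. The medians of the partners and recruitment list were -0.03 in AID-Tada3, -0.04 in AID-Yeats2, -0.14 in Supt7l-/- and -0.00025 in AID-Zzz3.

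Germline genes known to be silenced by promoter methylation in somatic cells were listed as well. Of 16 such genes, 10 to 13 were tested in each mutant. Stk31 rose in AID-Yeats2, to 141 and 125 CPM in the clones against 72.6 and 83.0 CPM in WT (edgeR log2 0.77, adjusted p = 0.000277), and stood at 0.27 (adjusted p = 0.345) under spike-in scaling. It fell in Supt7l-/-, at 59.8 and 52.0 CPM against the same WT values (-0.48, adjusted p = 0.0190), a call lost without clone 1 (0.109), without clone 2 (0.257) and in the joint fit (0.164). The list summed to 222 to 237 CPM in AID-Yeats2 and 141 to 152 CPM in Supt7l-/-, against 145 to 160 CPM in WT, and to 171 to 178 CPM in AID-Zzz3, against 136 to 138 CPM in WT. AID-Tada3 had 96.8 to 102 CPM, against 98.9 to 162 CPM in WT. Stk31 alone made up most of the difference between the AID-Yeats2 and WT sums. The median log2 fold change of the list was 0.26 in AID-Yeats2, 0.27 in Supt7l-/-, 0.45 in AID-Zzz3 and -0.35 in AID-Tada3. DNA methylation itself was not measured in these libraries.

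Some markers of cell state also differed from WT. In Supt7l-/-, 2 of 11 naive genes tested were called lower by edgeR, where 2.02% of all genes were. These were Tfcp2l1 (-0.24, edgeR adjusted p = 0.0429) and Zfp42 (-0.25, 0.0431). Neither passed under spike-in scaling, by DESeq2, in the joint fit or without either clone. The naive list summed to 2905 to 3002 CPM in Supt7l-/-, against 3265 to 3331 CPM in WT. The 7 primitive endoderm markers summed to 17.9 to 23.3 CPM in Supt7l-/- and 16.0 to 20.4 CPM in AID-Yeats2, against 11.6 to 13.3 CPM in WT. Their sum was higher in AID-Zzz3 too, at 18.5 to 18.8 CPM against 11.4 to 14.5 CPM in WT. In AID-Tada3 it was 9.51 to 10.3 CPM, against 8.90 to 16.9 CPM in WT. Among these markers, Sox17 had 0 counts in both Supt7l-/- libraries and Foxa2 had 0 in both AID-Yeats2 libraries. Of the 4 such markers tested in Supt7l-/-, 1 rose by edgeR, Dab2 (0.89, adjusted p = 0.0353), where 1.32% of all genes were higher. Dab2 is named here after its value was seen, and it passed in 4 of 10 alternatives. The part of these markers in the changes of Uhrf1 and Tet3 was not tested. None of the 6 to 7 formative and primed genes tested was called in any mutant by edgeR, where 0.0331% to 7.24% of all genes were.

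The WT lines, which serve as 1 group above, were also compared with each other. Paired within each of 3 projects, 0 members passed by edgeR, where 0.437% of all genes were higher in the Tir1/BirA line and 0.804% lower. By DESeq2 0 members passed too, where 0.691% of all genes were higher and 0.811% lower. In edgeR 3 members had an unadjusted p under 0.05, as did 14.0% of all genes. Those 3 were Tet3, Dnmt3a and Tet2, each lower in the Tir1/BirA line in 3 of 3 projects. Tet3 had 24.4, 25.6 and 19.9 CPM in Tir1/BirA WT of projects 1, 2 and 3, against 35.9, 30.3 and 26.0 CPM in plain WT (-0.40 ± 0.11, adjusted p = 0.115). Dnmt3a had 20.5, 26.8 and 22.1 CPM in Tir1/BirA WT, against 23.4, 35.7 and 31.8 CPM in plain WT (-0.38 ± 0.11, adjusted p = 0.142). Tet2 was at -0.24 ± 0.08 (adjusted p = 0.184).

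Under spike-in scaling Tet3 (adjusted p = 0.0246), Dnmt3a (0.0307) and Tet2 (0.0421) passed in edgeR, where 3.85% of all genes were lower. Against the Tir1/BirA line alone, with the plain WT library left out, Tet3 was still lower in Supt7l-/- at -0.69 (adjusted p = 0.000439), in a fit that called 1281 genes higher and 1348 lower, against 191 and 293 with both WT libraries. In AID-Tada3 it stood at -0.475 (0.129). Dnmt1 did not separate the WT lines (0.03 ± 0.07, adjusted p = 0.915), and in AID-Yeats2 it fell by 0.54 against the Tir1/BirA library alone and by 0.43 against the plain WT library alone. Which WT line is closer to the mutants cannot be read from the labels.

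**Figure D4:**
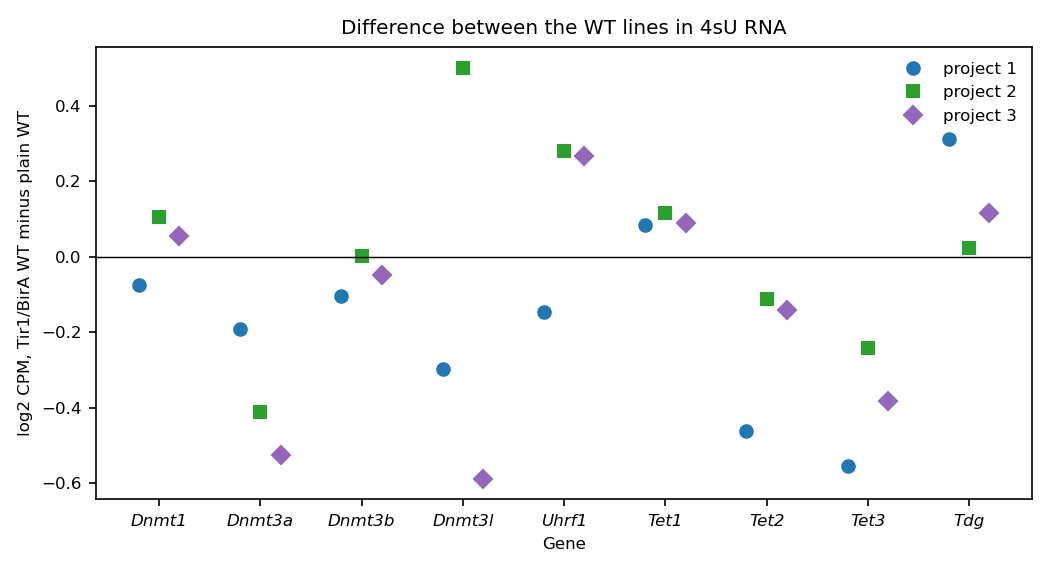
Difference in log2 CPM of 4sU RNA between WT with Tir1/BirA and plain WT for each member, 1 point per sequencing project. Tet3, Dnmt3a and Tet2 are below 0 in 3 of 3 projects, Tet3 from -0.56 to -0.24, and Tet1 and Tdg are above 0 in 3 of 3, Tet1 from 0.09 to 0.12.

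Across the 14 4sU libraries, with log2 CPM centred on the mean of each project, members differed in what they moved with. These correlations describe 14 libraries that share projects and clones, and carry no test. Uhrf1 and Tet1 had the highest correlation among members (r = 0.765), followed by Dnmt1 and Tdg (0.625), Uhrf1 and Tet3 (0.616) and Dnmt3b and Dnmt3l (0.584). The lowest values were those of Dnmt3l and Tdg (-0.733), Dnmt3a and Tet1 (-0.60), Tet2 and Tdg (-0.592) and Dnmt1 and Dnmt3b (-0.52). Of 9542 protein-coding genes with a mean of at least 5 CPM, those most like Dnmt1 were Actn2 (r = 0.966), Prrc2a (0.965) and Aifm1 (0.964). Those most like Uhrf1 were Anapc5 (0.955), Kif20a (0.948) and Alk (0.943), and those most like Tet3 were Pfkp (0.939), Tenm4 (0.930) and Dock11 (0.892). Dnmt3b was most like A930004D18Rik (0.897), Tpbg (0.895) and Mkrn1 (0.866).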

How the data were processed

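Newly synthesized and total RNA were measured in 16 libraries in 8 groups of 2. For each of the 3 projects the authors deposited counts of reads, unnormalized, for mouse genes and for spike-in genes, and these counts are the only values tested here. Per the file headers, the tables also hold a normalized signal, the authors' own log2 fold changes, p-values and adjusted p-values for the mutants, and other annotation: gene positions and the median length of a gene's transcripts. Per the submitters' processing notes, reads were handled with STAR 2.5.3a and HTSeq 0.6.1p1, and DESeq2 1.16.1, Bowtie2 2.2.8, cutadapt 1.10 and bcl2fastq 2.17.1.14 are named too. The mouse build named there is mm10, beside BDGP6, ASM294v2 and sacCer3. The counting settings are not given in the sources used here. All 9 members had the same position in the deposited tables and GENCODE M21.

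Genes passing edgeR's filterByExpr (minimum count 10, which all 9 members passed in every comparison) were scaled by TMM and tested with edgeR 4.0.16 (quasi-likelihood, robust; R 4.3.3, limma 3.58.1), with Benjamini-Hochberg adjustment over all genes at 0.05. CPM is the count per 1e6 of the effective library size. Spike-in scaling used median-of-ratios factors of the spike-in genes. Alternatives were spike-in scaling, DESeq2 1.42.0 and its size factors, other filters (none, or at least 50 counts), a joint fit, blocks and leaving out each library; a lone library is then assumed to vary like the other groups. The fits were tested on simulated counts. Summaries and plots used matplotlib 3.10.9, numpy 2.4.6 and pandas 2.3.3 in Python 3.11.15. WT 4sU and total RNA came from the same 2 cell lines, so their replicate numbers pair them, and same-line libraries deviated together (r = 0.432 across genes); blocking by line changed no call of a member.

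The text names all 9 members, the targeted genes, called genes of the other lists (up to 5 by p) and the 3 genes most like each called member. The members and lists were chosen with earlier results of these data known. Mutant replicates are clones and WT replicates are lines, so p-values measure the spread between these. Counts limit precision by counting error, and reads without molecular identifiers are not independent molecules.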

Additional observations from a re-analysis of the deposited data

How the results depend on the processing

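Among 817 alternative values of single genes, 658 kept direction and side of the threshold, 69 lost a call, 38 gained one and 52 changed sign, of which 6 were called values. The count of members called in AID-Tada3 (0) became 2 under spike-in scaling, where 24 of 15099 genes were higher and 212 lower. It became 1 with no filter, where 168 of 27239 genes were higher and 208 lower. In AID-Yeats2 (2) it was 1 by DESeq2, where 329 of 14513 genes were higher and 268 lower. In Supt7l-/- (2) it was 0 in the joint fit, where 34 of 15426 genes were higher and 63 lower. In AID-Zzz3 (0) it was 3 under spike-in scaling, where 129 of 14529 genes were higher and 3547 lower. There it was 1 (Dnmt1) with no filter, where 436 of 26949 genes were higher and 321 lower. It was also 1 (Dnmt1) in the joint fit, where 325 of 15426 genes were higher and 258 lower. Between WT lines (0) it was 3 under spike-in scaling, where 67 of 14181 genes were higher and 546 lower. It was 2 with no filter, where 388 of 24805 genes were higher and 472 lower. For AID-Yeats2 against Supt7l-/- (5) it was 0 under spike-in scaling, where 329 of 14513 genes were higher and 360 lower. It was 3 by DESeq2, where 813 of 14513 genes were higher and 584 lower. The differences from AID-Tada3 (0 each) stayed at 0 in every setting that kept all libraries. For 4sU against total RNA (8) every count with all libraries was 8, and 63.4% of all genes passed in the main fit. Leaving out a library also moved the counts of members and of all genes in some of these comparisons. The cause of these shifts was not tested, but a fit without a library has fewer samples. Numbers name clones in mutants and lines in WT, so the replicate block was fitted only for AID-Yeats2 against Supt7l-/- and 4sU against total RNA. For the former (clone number) it called 6 members, where 2380 of 14222 genes were higher and 2115 lower. The main fit of that contrast called 1299 of 14513 genes higher and 1062 lower. For the latter (line) it called 8 members, where 5288 of 14494 genes were higher and 5397 lower. Clone numbers share only a number (r = 0.0237 across genes). Under the block by clone number Dnmt3a passed at -0.27 (adjusted p = 0.0292 in edgeR).

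Spike-in scaling turned the sign of Dnmt3a (-0.089) and Tdg (-0.079) in AID-Tada3, of Dnmt3b (-0.12), Uhrf1 (-0.44), Tet1 (-0.37), Tet2 (-0.43), Kdm2b (-0.016) and Gldc (-0.099) in AID-Yeats2, and of Dnmt3a (-0.22), Dnmt3b (-0.33), Dnmt3l (-0.12) and Tet2 (-0.29) in Supt7l-/-. In AID-Zzz3 it turned Dnmt3b (-0.36), Dnmt3l (-0.22), Uhrf1 (-0.33), Tet1 (-0.24) and Tet2 (-0.29), in 4sU against total RNA Dnmt1 (0.89), Dnmt3b (1.30) and Uhrf1 (0.76), and between WT lines Dnmt1 (-0.075) and Tet1 (-0.0068). In AID-Zzz3, values near 0 also turned with DESeq2 size factors (Dnmt3b -0.017), no filter (Dnmt3b -0.024, Uhrf1 -0.0082), at least 50 counts (Dnmt3a 0.0076) and the joint fit (Dnmt3b -0.0023), as did Tet2 in AID-Yeats2 against Supt7l-/- with at least 50 counts (0.0057).

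With a library left out, values near 0 changed sign within these ranges. In AID-Tada3 they were -0.045 to 0.21 for Dnmt3a, -0.18 to 0.10 for Dnmt3l and -0.083 to 0.24 for Tdg. In AID-Yeats2 they were -0.32 to 0.081 for Dnmt3a, -0.081 to 0.21 for Uhrf1 and -0.23 to 0.0014 for Tet3, and in Supt7l-/- -0.040 to 0.37 for Dnmt3a and -0.085 to 0.17 for Dnmt3b. In AID-Zzz3 they were -0.26 to 0.27 for Dnmt3a, -0.092 to 0.085 for Dnmt3b, -0.11 to 0.47 for Dnmt3l and -0.13 to 0.16 for Uhrf1. Between WT lines they were -0.012 to 0.076 for Dnmt1 and -0.43 to 0.024 for Dnmt3l, and for AID-Yeats2 against Supt7l-/- -0.052 to 0.018 for Tet2 and -0.13 to 0.068 for Tdg.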
